A study of Mus musculus with 2 samples.

Results

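The spleen cells described here carried UMIs (unique molecular identifiers, each standing for 1 captured transcript) of the lectin gene Cd209a, of Clec10a or of both. They also carried MHC class II transcripts, and they are called members below. They were chosen by a rule on each cell's own counts. A member held at least 3 UMIs summed over Cd209a, Clec10a and Mgl2 and at most 1 UMI of Xcr1 and Clec9a, which mark cDC1. It held at most 1 UMI of Ccr7 and Fscn1, which mark mature dendritic cells (DCs), and at most 2 UMIs of Siglech, which marks plasmacytoid DCs. The transcripts Cd74, H2-Aa, H2-Ab1 and H2-Eb1 made up at least 1.5% of its UMIs, and S100a8 and S100a9, which fill neutrophils, made up under 1%. The rule found 517 members among 20058 kept cells, 390 of 9423 in the wild-type library and 127 of 10635 in the SCD library. Levels of the rule's genes, and levels of any gene in cells chosen with them, are therefore descriptions of the chosen cells.

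Both libraries came from 1 mouse each, aged 12 to 16 weeks and untreated, so no difference had a replicate check and no test between the conditions was possible. Intervals in parentheses are 95% intervals, exact binomial for shares and exact Poisson for levels, and they cover counting error only. The wild-type mouse is a non-sickling control, homozygous for Hbatm1Paz, heterozygous for Hbbtm1Tow and hemizygous for Tg(HBA-HBBs)41Paz, so by its labels it too carried the alpha globin deletion and the human sickle globin transgene. The SCD mouse (sickle cell disease, Berkeley strain) was homozygous for all of these alleles, so that its red cells sickle, and the study set such mice against littermates to ask how chronic hemolysis shapes spleen DCs. Erythrocytes had been lysed and other cells removed with antibody-coated magnetic beads before the cells were captured, so shares refer to the enriched suspension and not to the spleen.

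Conventional DCs take up antigen and present it to T cells, and they divide into cDC1, which cross-present to CD8 T cells, and cDC2, which mainly prime CD4 T cells. In the mouse spleen cDC2 fall into a Notch2-dependent type with ESAM and CLEC4A4 (DCIR2) at the bridging channels, and a type with CD209a, CLEC10A, CX3CR1 and CCR2 that shares more genes with monocytes. CD209a is the mouse relative of the human pathogen receptor DC-SIGN, CLEC10A (MGL1) binds galactose-type sugars, and the adjacent gene Mgl2 encodes its close paralog.

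Sequencing gave 97880318 UMIs in 10845 wild-type cells and 189688217 UMIs in 13447 SCD cells. Neutrophil-gate cells, with at least 5% of UMIs from S100a8 and S100a9 and under 0.5% from the MHC class II genes, were 41.2% of kept wild-type and 67.9% of kept SCD cells. Hba-a1, an alpha globin gene of the locus that Hbatm1Paz disrupts in both mice, was listed at 539 CPM (UMIs per 1000000 UMIs of the pooled cells) in wild-type and 91.8 CPM in SCD members, and 95.3% of the wild-type UMIs came from 3 cells. It was counted in 14.1% of wild-type and 46.5% of SCD members, which goes against the labelled deletion, and whether these UMIs stem from the mouse gene was not tested. The libraries shared 88 cell barcodes, and 2 members of each library carried such a barcode. Members had a median of 9550.5 UMIs and 2982 genes in the wild-type library, against 11320.0 UMIs and 3151 genes in the SCD library. Scrublet called 15 wild-type members (3.85%) and 1 SCD member (0.787%) doublets, and these were kept.

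The lectin counts themselves differed between the libraries. The median member held 5 lectin UMIs in the wild-type library, with a highest count of 85, and 13 in the SCD library, with a highest count of 82. Of the wild-type members 97 stood at the lowest allowed count of 3, as did 12 of the SCD members. Cd209a was the only lectin detected in 70.0% of wild-type members (65.2 to 74.5) and in 22.0% of SCD members (15.2 to 30.3). Cd209a and Clec10a without Mgl2 were found together in 24.9% of wild-type members (20.7 to 29.5) and 63.8% of SCD members (54.8 to 72.1). A further 3.33% and 13.4% had Clec10a alone. Mgl2 gave 10 UMIs over all wild-type members and 1 UMI over all SCD members, so the members were in effect chosen on Cd209a and Clec10a, and the label gene Mgl2 was all but absent. The transcripts of Mgl2 and Clec10a share an identical run of 183 bases, but in their last 500 bases, where 3′ libraries are read with 91 cycles, the longest shared run was 15 bases.

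**Figure D1:**
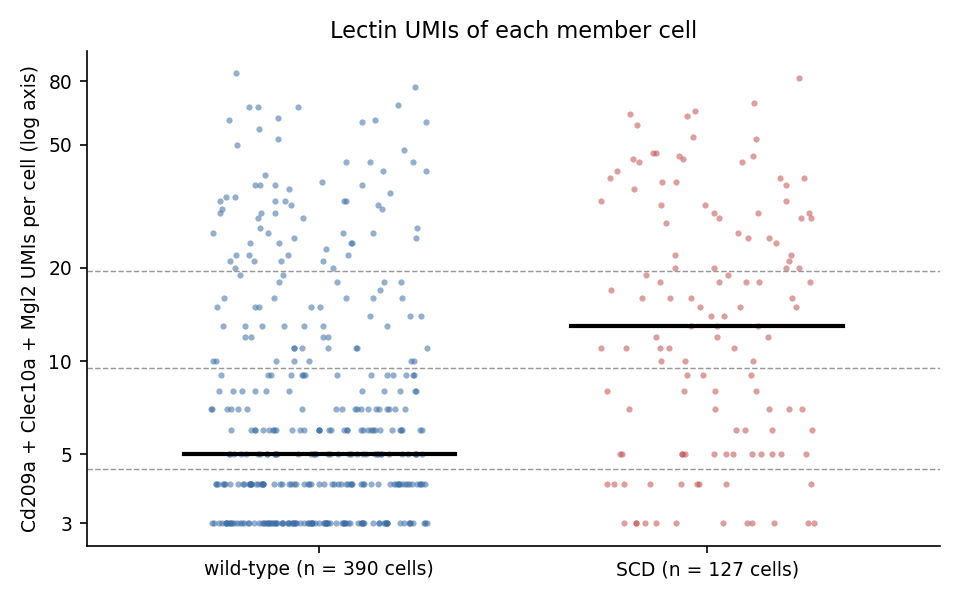
Summed Cd209a, Clec10a and Mgl2 UMIs of every member on a log axis, with points for cells, black lines for medians and dashed lines between the count classes of 3 to 4, 5 to 9, 10 to 19 and 20 or more. The wild-type cloud is densest at the lowest counts and has a median of 5, while the SCD cells are spread evenly about a median of 13.

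Cd209a (ENSMUSG00000031494), the gene that carried most of the rule, lies on the minus strand at chr8:3743397-3748984 (GRCm38, GENCODE). Its 250 bases upstream of the RefSeq start, at chr8:3748985-3749234 on the minus strand of GRCm38.p6, are shown because this is the gene that set the cells apart.
Cd209a: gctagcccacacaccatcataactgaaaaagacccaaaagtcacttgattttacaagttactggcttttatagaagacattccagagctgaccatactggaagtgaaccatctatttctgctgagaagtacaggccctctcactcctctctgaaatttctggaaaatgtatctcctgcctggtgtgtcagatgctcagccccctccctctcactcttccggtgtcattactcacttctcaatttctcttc
Neither of the division gene motifs described further down, CCAAT and TTTGAA on either strand, occurs in it. Cd209a stood at 872 CPM in wild-type members (843 to 902) and at 1006 CPM in SCD members (956 to 1059). After each cell was thinned to 2000 UMIs, Cd209a was found in 76.6% of wild-type and 70.9% of SCD members (96.4% and 86.6% unthinned), and in 0.483% and 0.160% of neutrophil-gate cells, which should lack it and had median depths of 2546 and 7242 UMIs.
Clec10a (ENSMUSG00000000318, plus strand, chr11:70156197-70170834) differed more. It stood at 244 CPM in wild-type members (229 to 260.2) and at 635 CPM in SCD members (595 to 676). Thinned cells with a Clec10a UMI were 18.0% of wild-type and 48.0% of SCD members, against 0.419% and 0.743% of neutrophil-gate cells.

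The other label genes, which the rule did not use, were present. Tmem176b, an intracellular membrane protein of DCs and monocytes, stood at 594 CPM in wild-type members (570.1 to 619) and 687 CPM in SCD members (646 to 731). Cx3cr1, the fractalkine receptor, stood at 198 CPM (184 to 212) and 296 CPM (269 to 325). Of the 12 cDC2 markers, 10 reached 50 CPM in wild-type members and 8 did in SCD members. The T and NK cell and the megakaryocyte or platelet markers each summed to under 10 CPM in the members of either library, and the B cell markers to 29.6 CPM in wild-type and 38.2 CPM in SCD members. None of these lists had a gene at 50 CPM.

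Members were 4.14% of kept wild-type cells (3.75 to 4.56) and 1.19% of kept SCD cells (0.996 to 1.42), a ratio of 0.289 (0.237 to 0.352). Much of the SCD suspension consisted of neutrophils, and the ratio depended on the denominator. Outside the neutrophil gate members were 7.04% of wild-type and 3.71% of SCD cells, a ratio of 0.527 (0.434 to 0.641). Among kept cells past the same MHC class II limit they were 13.8% of wild-type (12.6 to 15.2) and 16.6% of SCD cells, a ratio of 1.20 (0.997 to 1.44) that lies on the other side of 1 with an interval that includes 1. The shares of the other gates moved in different directions. The Clec4a4 type, with at least 3 UMIs of Clec4a4, Dtx1 and Esam and at most 1 lectin UMI, went from 4.36% to 0.536% of kept cells, whereas cDC1 were 1.28% and 1.54%. Members were accordingly 48.7% of the cells in either cDC2 gate in the wild-type library (45.2 to 52.2) and 69.0% in the SCD library (61.8 to 75.6).

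The lower share of SCD members lay mostly among cells with few lectin UMIs. Cells with 3 to 4 lectin UMIs numbered 163 in the wild-type and 21 in the SCD library, a ratio of shares of kept cells of 0.114 (0.0725 to 0.180). The ratio was 0.223 (0.149 to 0.335) for the 115 and 29 cells with 5 to 9 lectin UMIs. It was 0.610 (0.387 to 0.964) for the 45 and 31 cells with 10 to 19, and 0.608 (0.418 to 0.884) for the 67 and 46 cells with 20 or more. Members with 10 or more lectin UMIs, a limit set after the counts had been seen, were 28.7% of wild-type (24.3 to 33.5) and 60.6% of SCD members (51.6 to 69.2). Because the libraries mixed these classes so differently, the main results below are also given within the members with 10 or more lectin UMIs, 112 wild-type and 77 SCD cells.

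Cells on either side of the limit were alike in the wild-type library. Cells that met every other limit with 2 lectin UMIs, just outside it, numbered 165 with Dtx1 at 154 CPM, Cd4 at 207 CPM and Ccr2 at 93.7 CPM, and cells with 3 UMIs, just inside, had Dtx1 at 141 CPM, Cd4 at 214 CPM and Ccr2 at 69.8 CPM. In the SCD library 21 cells lay just outside with Ccr2 at 438 CPM and Dtx1 at 32.1 CPM, and the 12 just inside had Ccr2 at 845 CPM and Dtx1 at 42.6 CPM.

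Some genes of the Clec4a4 type were at higher levels in wild-type members with few lectin UMIs than in those with many. Dtx1, a Notch target and ubiquitin ligase, stood at 137 CPM in wild-type members with 3 to 4 lectin UMIs (119 to 158), 101 CPM with 5 to 9, 10.9 CPM with 10 to 19 and 7.13 CPM with 20 or more (2.62 to 15.5). Cd4, a coreceptor that also marks part of the spleen cDC2, stood at 204, 217, 100.2 and 36.9 CPM in these classes. Ccr2, the receptor that guides monocytes and some DC precursors out of the bone marrow, went the other way, from 59.6 CPM (47.6 to 73.6) over 218 and 532 to 1018 CPM (951 to 1088). Cx3cr1 went from 56.1 over 140.5 and 279 to 464 CPM. At least 3 UMIs of Clec4a4, Dtx1 and Esam were held by 78 of 278 wild-type members with 3 to 9 lectin UMIs and by 4 of 112 with 10 or more. In all, 82 wild-type members (21.0%, 17.1 to 25.4) and 2 SCD members (1.57%, 0.191 to 5.57) did so.

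SCD members did not follow all of these gradients. Ccr2 was high in every class, at 887 CPM (769 to 1017), 719, 1215 and 1367 CPM (1273 to 1467). Lyz2, the lysozyme of monocytes and macrophages, stood at 6150.2, 2202, 7307 and 3769 CPM in SCD members without an order, while it went from 939.8 over 3263 and 4799.9 to 5386 CPM in wild-type members. Neutrophil-gate cells held Lyz2 at 7646 CPM (wild-type) and 10499 CPM (SCD), and thinned cells with a Lyz2 UMI were 15.1% and 45.6% of the Clec4a4 type and 29.8% and 55.5% of cDC1, beside 39.6% and 81.9% of members. The part of free Lyz2 RNA in the members' values was not tested. Cd4 was at 56.8, 42.1, 14.8 and 7.03 CPM in the SCD classes and thus lower than in the wild-type class at each step. Flt3, the growth factor receptor of the DC lineage, stayed between 100.1 and 199 CPM in all 8 classes.

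**Figure D2:**
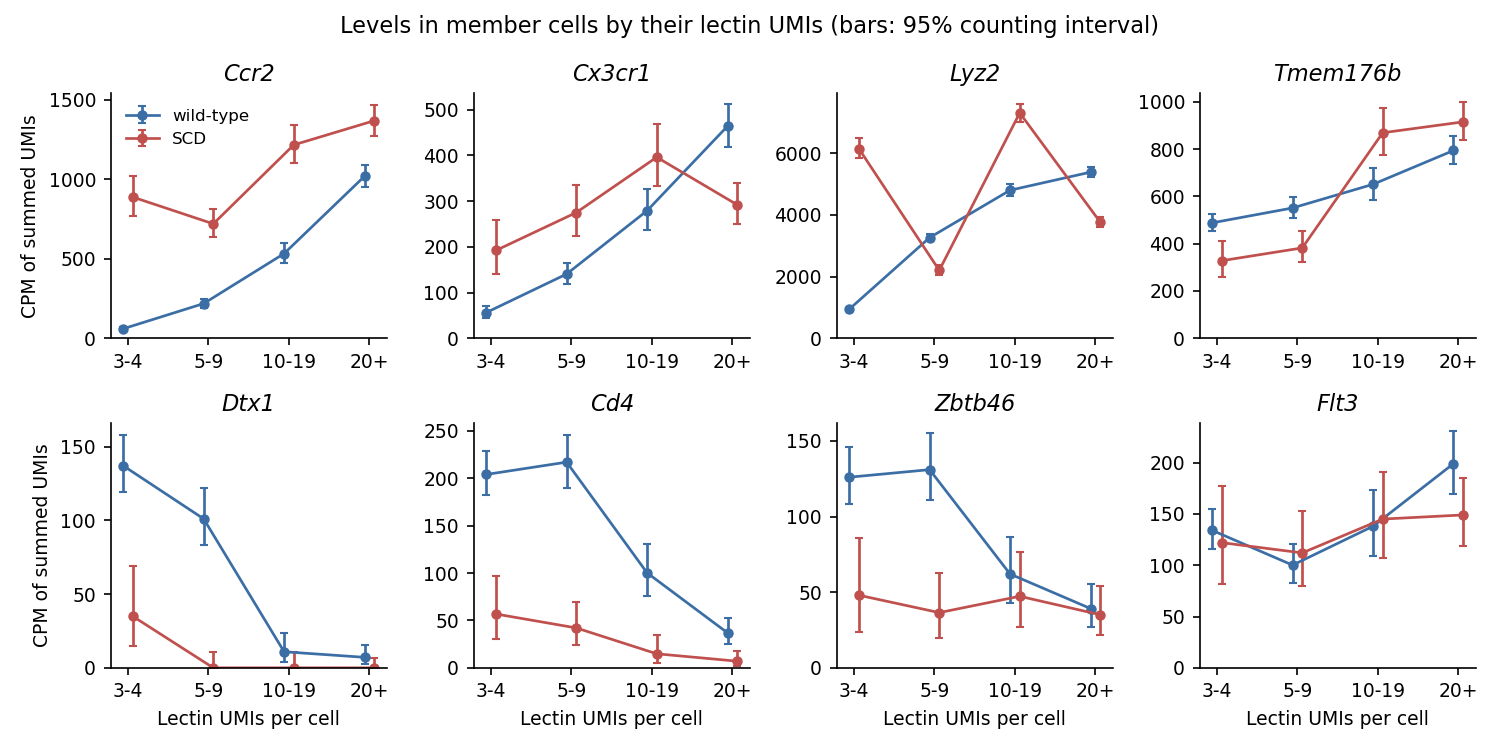
CPM of 8 genes in members of the wild-type (blue) and SCD (red) library by their lectin UMIs, with bars for 95% counting intervals. Wild-type Ccr2 and Cx3cr1 climb and Dtx1 and Cd4 fall off with lectin count, whereas SCD Ccr2 is at or above 719 CPM in every class.

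Across 2937 genes tested in both libraries, 14 (0.477%) were at least 2-fold higher and 33 (1.12%) at least 2-fold lower in members with 10 or more lectin UMIs than in members with 3 to 9, in both libraries. Among the higher genes, Mrc1, the mannose receptor, stood at 5.53 against 61.9 CPM in wild-type and 17.1 against 91.5 CPM in SCD members. Clec4b1, a C-type lectin, stood at 26.8 against 143 and 49.6 against 191 CPM. Fcgr2b, the inhibitory receptor for IgG, stood at 40.7 against 165 and 88.9 against 217 CPM. Trf (transferrin), Hpgd, which inactivates prostaglandins, Cd93, F13a1, Klrd1, Olfm1 and Nrp1 completed the 10 named ones. Lower ones were Tbc1d4, a regulator of membrane traffic, at 427 against 74.1 CPM in wild-type and 171 against 22.0 CPM in SCD members, Ltb (lymphotoxin beta) at 618 against 147 and 209 against 45.2 CPM, and Ccl5, a chemokine, at 463 against 104 and 132 against 7.71 CPM. Adam23, Eno3, Sash1, Ppp1r14a, Slc12a2, Bcl2a1b and Ndst1 were lower as well.

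In both libraries the share of members with more DC than monocyte transcripts lay above that of classical monocytes and below those of the Clec4a4 type and cDC1. In each cell thinned to 2000 UMIs, the UMIs of 10 DC core genes (among them Flt3, Zbtb46 and Itgax) were set against those of 15 monocyte and macrophage genes (among them Lyz2, Csf1r and Ccr2). More DC than monocyte UMIs were found in 71.5% of wild-type members (66.7 to 75.9) and 34.6% of SCD members (26.4 to 43.6), a ratio of 0.485 (0.379 to 0.621). Within 2 UMIs of equality lay 19.5% of wild-type and 26.8% of SCD members, and whether the balance forms a range or separate groups was not tested. Without Lyz2 the shares were 79.2% and 48.8%. In members with 10 or more lectin UMIs they were 36.6% (27.7 to 46.2) and 22.1% (13.4 to 33.0), and in members with 3 to 9 they were 85.6% and 54.0%. The Clec4a4 type had 95.1% and 96.5% and cDC1 84.3% and 123 of 164 cells, while classical monocytes, gated on Ly6c2, Ccr2, F13a1 and Csf1r with low MHC class II, had 0.256% and 0.192%.

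Summed over all members, 3381 genes counted as expressed, which means a level of 50 CPM or more from 20 or more UMIs in either library. Of these 76 (2.25%) were at least 2-fold higher and 185 (5.47%) at least 2-fold lower in SCD than in wild-type members, on a log2 scale with 5 CPM added. In members with 10 or more lectin UMIs the counts were 51 (1.60%) higher and 62 (1.95%) lower of 3181 genes, so higher genes were 29.1% of the genes past 2-fold in all members and 45.1% there. Of 3037 genes expressed in both sets, 75 were higher in all members and 35 of them also in members with 10 or more lectin UMIs. Of the 105 lower ones, 40 were lower there too.

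The 12 expressed genes with the highest ratios, chosen without genes that SCD neutrophil-gate cells held at a higher level than SCD members, held 7 genes of cell division, which are taken up further down. In the wild-type library 9 of the 12 stood higher in neutrophil-gate cells than in members, namely Wfdc17, Hist1h2ae and the 7 division genes. The other 5 of the 12 were Wfdc17, Lgals1, Lmo1, the histone gene Hist1h2ae and CT010467.1. Wfdc17, a small secreted protein of myeloid cells, stood at 281 CPM in wild-type and 1238 CPM in SCD members, a log2 ratio of 2.12 (2.01 to 2.23). It stood at 619 and 1480.0 CPM in members with 10 or more lectin UMIs, and was detected in 44.1% of wild-type and 90.6% of SCD members. Wfdc17 was also present in neutrophil-gate cells, at 1386 CPM (wild-type) and 480.0 CPM (SCD), and the part of their RNA in the members' values was not tested. Lgals1, encoding galectin-1, stood at 233 and 786 CPM, a log2 ratio of 1.73 (1.61 to 1.86) that fell to 0.51 (0.36 to 0.67) with 10 or more lectin UMIs. Lmo1, a LIM-domain transcriptional regulator, stood at 22.2 and 89.8 CPM, and its log2 ratio of 1.80 was 0.93 there. Lgals1 and Lmo1 were thus the named higher genes that did not keep a 2-fold ratio in members with 10 or more lectin UMIs, and the other 10 did.

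The 12 genes with the lowest ratios, chosen with the exclusions given under the processing, were also at least 2-fold lower in members with 10 or more lectin UMIs. These cells are part of the set in which the genes were chosen. Scn3a, Dtx1, H2-M2, Gbp8, Chka and Bcl2a1a stood under 50 CPM there in both libraries. Dtx1, Scn3a, H2-M2 and Gbp8 had 0 to 3 SCD UMIs there, and their ratios depend on the added 5 CPM. Dtx1 gave 320 UMIs over the wild-type and 8 UMIs over the SCD members, 81.6 and 5.36 CPM, and in members with 10 or more lectin UMIs it gave 12 and 0 UMIs, the latter allowing up to 4.07 CPM. Scn3a, a sodium channel subunit, stood at 84.9 CPM in wild-type and 2.68 CPM in SCD members, with 34.6% and 1.57% of cells carrying a UMI. Dnase1l3, a secreted nuclease that digests DNA in chromatin, stood at 547 and 85.1 CPM, a log2 ratio of -2.62 (-2.87 to -2.37), and at 216 and 49.6 CPM with 10 or more lectin UMIs. Cd4 stood at 157 and 24.8 CPM and, in these cells, at 61.9 and 9.92 CPM.

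Adam23, an adhesion protein of the ADAM family, stood at 713 and 132 CPM in wild-type and SCD members. Ccl5, which attracts T cells and monocytes, stood at 336 and 56.3 CPM, and 60.7% of its SCD UMIs came from 3 cells. Asb2, part of a ubiquitin ligase, stood at 299 and 46.2 CPM, and Chka, choline kinase alpha, at 175 and 23.5 CPM. Gbp8, H2-M2, H2-Eb2 and Bcl2a1a made up the rest of the 12. H2-M2 is a nonclassical MHC class I gene with 206 wild-type and 3 SCD UMIs, and 34.5% of the wild-type ones came from 3 cells. Bcl2a1a has near-identical copies, between which reads may have been split, so its own value is uncertain.

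**Figure D3:**
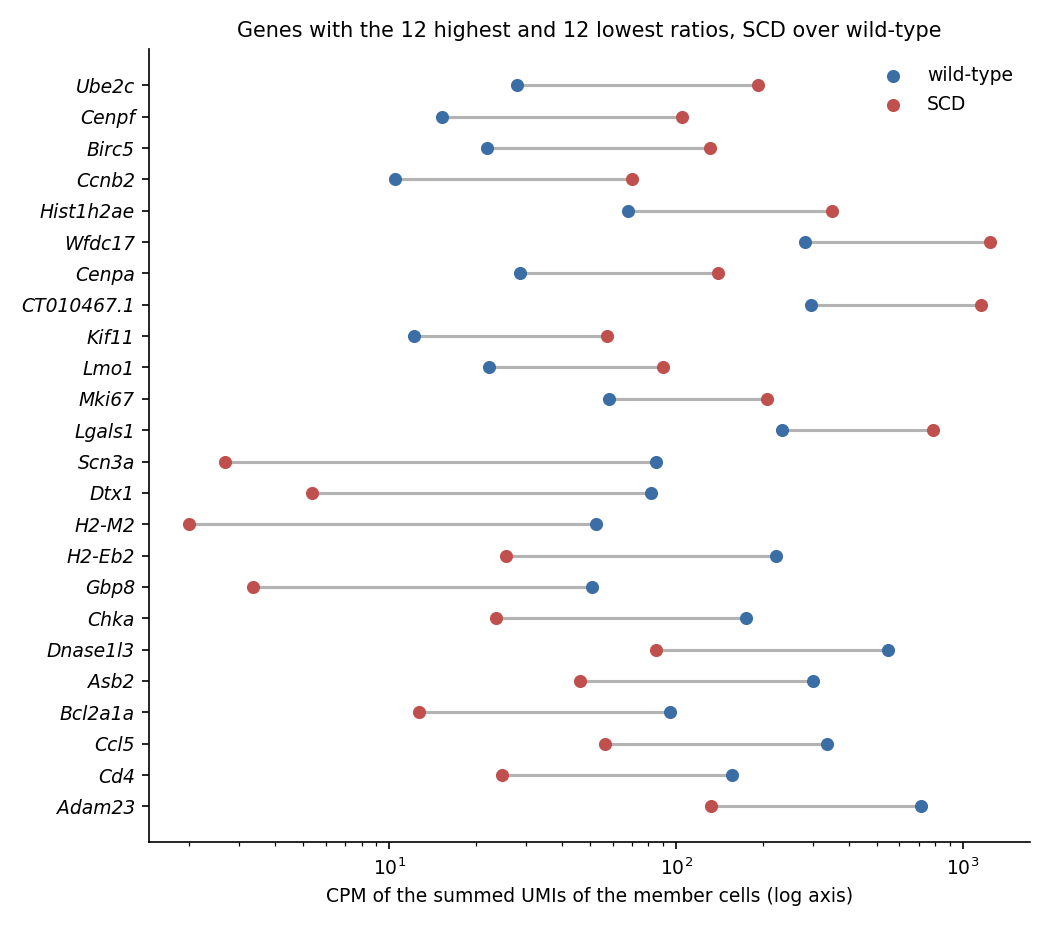
CPM of the genes with the 12 highest and the 12 lowest SCD over wild-type ratios in all members, on a log axis, with blue points for wild-type and red points for SCD. Left out were genes of the rule, of cell classes, and those that neutrophil-gate cells held above members in the library where the gene was higher. Division genes such as Ube2c fill most of the upper rows, and the lower rows include Dtx1, Cd4 and Dnase1l3.

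Transcripts of dividing cells were higher in SCD members at low and at high lectin counts. Of 12 expressed cell cycle genes 9 were at least 2-fold higher and none lower, beside 2.25% of all expressed genes higher. The median log2 ratio was 1.60, beside -0.06 over all expressed genes. With 10 or more lectin UMIs 9 of 12 were higher, beside 1.60% of all expressed genes, with a median of 2.16. Of the 12 genes expressed over all members 7 reached 50 CPM in wild-type and 12 in SCD members. Thus 5 of them entered through the library where they were higher, and without the 50 CPM minimum the median was 1.32. Ube2c, which loads ubiquitin for the anaphase-promoting complex, stood at 27.8 CPM in wild-type and 192 CPM in SCD members, a log2 ratio of 2.58 (2.30 to 2.87). Mki67, the Ki-67 antigen, stood at 58.1 and 207 CPM, and at 29.5 and 181 CPM with 10 or more lectin UMIs. Birc5 (survivin), Ccnb2 (cyclin B2), Kif11 (a spindle motor) and the centromere genes Cenpf and Cenpa followed with log2 ratios of 1.86 to 2.43. Pcna, the sliding clamp of DNA replication, stood at 107 and 109 CPM.

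The share of cells with any of 11 division gene UMIs, after thinning to 2000 UMIs, was 10.3% in wild-type members (7.45 to 13.7) and 28.3% in SCD members (20.7 to 37.0). The same shares were 10.7% (5.66 to 18.0) and 26.0% (16.6 to 37.2) with 10 or more lectin UMIs and 10.1% and 32.0% with 3 to 9. The Clec4a4 type had 21.5% and 21.1%, and cDC1 had 23 of 121 and 42 of 164 cells, a ratio of 1.35 (0.858 to 2.11). Classical monocytes, whose gate allowed at most 1 UMI of Mki67 and Top2a, had 4.10% and 24.4%, a ratio of 5.94 (3.59 to 9.83) beside 2.76 (1.84 to 4.13) for the members, and neutrophil-gate cells had 8.60% and 24.7%. The ratio was 2.87 (2.54 to 3.24) in neutrophil-gate cells and 0.981 (0.574 to 1.68) in the Clec4a4 type. These intervals count cells of 1 mouse per library, and those of members and cDC1 overlap. Whether the gates differ in this ratio was not tested. Ube2c stood at 64.0 CPM in wild-type and 156 CPM in SCD neutrophil-gate cells, and the part of free RNA in the members' division counts was not tested. The counts were concentrated in few cells, as 51.0% of the SCD members' Ube2c UMIs came from 3 cells, and without these 3 cells Ube2c stood at 98.1 CPM in SCD and, likewise without 3, at 11.4 CPM in wild-type members. Cells with 2 or more division UMIs were 9.49% of wild-type and 33.1% of SCD members unthinned.

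Promoters of late cell cycle genes are known for CCAAT boxes, bound by NF-Y, and for the cell cycle homology region, of which TTTGAA is a core. The 250 bases upstream of the RefSeq starts of 4 of the 7 named division genes, those that hold both motifs, are shown in the direction of transcription, from GRCm38.p6, with CCAAT and TTTGAA on either strand (ATTGG and TTCAAA on the other strand) in capitals. They lie at chr2:164769679-164769928 (plus strand) for Ube2c, chr19:37376132-37376381 (plus) for Kif11, chr7:135716380-135716629 (minus) for Mki67 and chr9:70421555-70421804 (minus) for Ccnb2.
Ube2c: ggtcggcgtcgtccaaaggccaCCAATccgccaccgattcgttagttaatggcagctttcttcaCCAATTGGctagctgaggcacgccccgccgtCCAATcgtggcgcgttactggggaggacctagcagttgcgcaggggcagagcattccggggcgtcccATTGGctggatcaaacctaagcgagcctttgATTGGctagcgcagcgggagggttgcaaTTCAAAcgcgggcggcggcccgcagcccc
Kif11: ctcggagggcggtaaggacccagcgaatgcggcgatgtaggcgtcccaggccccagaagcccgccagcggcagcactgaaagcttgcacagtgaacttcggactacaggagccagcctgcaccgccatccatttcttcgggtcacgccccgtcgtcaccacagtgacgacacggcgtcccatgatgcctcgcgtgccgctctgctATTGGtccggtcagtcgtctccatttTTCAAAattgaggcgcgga
Mki67: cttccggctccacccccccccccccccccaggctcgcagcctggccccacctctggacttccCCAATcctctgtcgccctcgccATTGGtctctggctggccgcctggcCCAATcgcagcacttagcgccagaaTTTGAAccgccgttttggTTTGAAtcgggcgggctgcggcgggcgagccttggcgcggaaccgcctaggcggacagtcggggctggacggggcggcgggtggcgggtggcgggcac
Ccnb2: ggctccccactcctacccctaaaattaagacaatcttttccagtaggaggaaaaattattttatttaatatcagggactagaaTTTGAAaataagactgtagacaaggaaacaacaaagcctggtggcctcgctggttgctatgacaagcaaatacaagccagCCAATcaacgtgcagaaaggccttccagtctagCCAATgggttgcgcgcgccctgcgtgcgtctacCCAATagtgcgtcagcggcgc
Ube2c held 6 CCAAT matches, a pair of which overlap on opposite strands, and 1 TTTGAA match starting 29 bases before the start. Of the 7 named division genes 6 held CCAAT, 4 held TTTGAA and 4 held both. Among 32851 RefSeq windows of the same length 33.8% held CCAAT, 16.0% held TTTGAA and 5.55% held both. A gene counted if any of its windows held the motif, whereas these shares are of single windows, so the units are not alike. A match describes the letters of these windows and not binding.

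The classical class II genes and the invariant chain Cd74 belong to the rule, and they had log2 ratios of -0.24 to -0.13. Of 14 expressed class I presentation genes 1 was at least 2-fold lower and none higher, with a median of -0.16, beside 5.47% of all expressed genes lower. Of 13 expressed class II pathway genes, with those of the rule among them, 4 were at least 2-fold lower and none higher. The median was -0.20, which lies among the values of the rule's genes and in part describes the chosen cells. The 4 lower genes, H2-Eb2, H2-Oa, H2-Ob and H2-DMb2, were not used by the rule. H2-Eb2, a beta chain gene next to H2-Eb1, stood at 223 CPM in wild-type and 25.5 CPM in SCD members. H2-Oa and H2-Ob, whose products restrain peptide loading, stood at 438 and 200.3 CPM and at 255 and 111 CPM, and H2-DMb2, a chain of the loading factor, at 371 and 146 CPM. With 10 or more lectin UMIs H2-Eb2 alone remained past 2-fold, at 70.5 and 17.6 CPM, and the list's median was -0.07. H2-DMb1 had a higher level in SCD members, 439 and 713 CPM, without reaching 2-fold. Ciita, the master regulator of these genes, stood at 682 and 454 CPM, and at 449 and 429 CPM with 10 or more lectin UMIs.

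Of 12 expressed maturation and costimulation genes 6 were at least 2-fold lower in SCD members and none higher, with a median of -0.97. Over all expressed genes 5.47% were lower. All 12 reached 50 CPM in wild-type and 8 did in SCD members, so that Cd86 and Cd274, among others, entered through the wild-type library alone. Without the 50 CPM minimum the median was -0.88. With 10 or more lectin UMIs it was -0.51 with 1 of 8 genes, Nfkbia, past 2-fold. Cd86, a ligand that costimulates T cells through CD28, stood at 55.1 CPM in wild-type and 18.1 CPM in SCD members. Cd274, encoding the inhibitory ligand PD-L1, stood at 90.0 and 13.4 CPM and at 34.5 and 6.61 CPM with 10 or more lectin UMIs. Relb, a NF-κB subunit needed for cDC2, stood at 134 and 50.9 CPM, Nfkbia, an inhibitor that NF-κB itself induces, at 279 and 107 CPM, Traf1 at 209 and 77.1 CPM and the adhesion molecule Icam1 at 127 and 57.0 CPM. The rule capped Ccr7 and Fscn1, so fully mature cells were not among the members.

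Outside the rule's own genes, 9 C-type lectins were expressed, of which 3 were at least 2-fold higher in SCD members and none lower. Over all expressed genes 2.25% were higher and 5.47% lower. With 10 or more lectin UMIs none passed 2-fold, beside 1.60% of all expressed genes higher and 1.95% lower. Clec7a, the beta-glucan receptor dectin-1, stood at 159 and 323 CPM, Clec12a, an inhibitory receptor for uric acid crystals, at 71.9 and 161 CPM, and Mrc1 at 25.5 and 62.3 CPM. Mrc1 thus reached 50 CPM in the SCD library alone. Clec4a1 stood at 199 and 164 CPM. All 5 expressed Fc receptor genes were within 2-fold, with Fcgr2b at 84.9 and 167 CPM and Fcer1g, the shared signalling chain, at 1363 and 1718 CPM.

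Among chemokine receptors Ccr2 was at least 2-fold higher in SCD members. It stood at 375 CPM in wild-type and 1104 CPM in SCD members, a log2 ratio of 1.55 (1.44 to 1.65), and at 826 and 1310.3 CPM with 10 or more lectin UMIs. Thinned cells with a Ccr2 UMI were 23.7% of wild-type (19.5 to 28.2) and 70.1% of SCD members (61.3 to 77.9), against 1.48% and 3.23% of neutrophil-gate cells (35.1% and 81.9% of members unthinned). Gpr183, which guides cDC2 to the bridging channels, stood at 108 and 101 CPM. Ccl9, a chemokine of myeloid cells, stood at 167 and 465 CPM, and at 378 and 572 CPM with 10 or more lectin UMIs.

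Of 10 DC core genes 4 were at least 2-fold lower in SCD members, beside 5.47% of all expressed genes, with a median of -0.60. All 10 reached 50 CPM in wild-type and 8 did in SCD members, so that Zbtb46 and Kit entered through the wild-type library alone. The median was also -0.60 without the 50 CPM minimum. Zbtb46, a transcription factor of conventional DCs, stood at 99.9 and 40.2 CPM, Kit at 177 and 48.9 CPM and Itgax (CD11c) at 277 and 117 CPM, and Relb is given above. With 10 or more lectin UMIs no core gene passed 2-fold, Zbtb46 stood at 48.2 and 39.7 CPM, and the median was -0.10. Flt3 was at 139 and 135 CPM in all members. Irf4, the factor of the cDC2 fate, stood at 65.5 and 72.4 CPM and Klf4, needed by part of the cDC2, at 188 and 272 CPM. Of 21 expressed lineage transcription factors 3 were lower, Zbtb46, Relb and Batf3 (209 and 91.8 CPM), and none higher, beside 5.47% of all expressed genes lower. Monocyte and macrophage genes had a median of 0.35, with Ccr2 higher and Adgre1 (F4/80) lower at 142 and 54.9 CPM, and a median of -0.02 with 10 or more lectin UMIs.

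Heme handling was examined because hemolysis loads the spleen with heme. Of 8 expressed heme and iron genes none passed 2-fold, and the median of 0.20 turned to -0.16 with 10 or more lectin UMIs. Over all expressed genes 2.25% were at least 2-fold higher and 5.47% lower, so that for so few genes such a count lies near that share. Hmox1, the enzyme that degrades heme, stood at 53.3 CPM in wild-type and 91.8 CPM in SCD members, but 57.7% of the SCD UMIs came from 1 cell. Without the 3 highest cells of each library it stood at 23.2 and 9.59 CPM, and with 10 or more lectin UMIs at 75.6 and 6.61 CPM. Fth1 and Ftl1, the ferritin chains, stood at 3175 and 3580.0 CPM and at 2072 and 2432 CPM. Tfrc, the transferrin receptor, stood at 63.5 and 31.5 CPM. None of 17 expressed NRF2 and antioxidant genes passed 2-fold, which also lies near the share over all expressed genes. Their median was 0.28, and -0.03 with 10 or more lectin UMIs, where Nfe2l2, encoding NRF2, stood at 97.9 and 97.0 CPM.

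Interferon-response genes were split. Of 12 expressed ones Ifi27l2a (704 and 1481 CPM), Ifi203 (151 and 391 CPM) and Ifi207 (34.2 and 76.4 CPM) were at least 2-fold higher in SCD members, and Irf1 was lower at 89.0 and 40.9 CPM. Ifi207 reached 50 CPM in the SCD library alone and Irf1 in the wild-type library alone. The median was 0.21, and over all expressed genes 2.25% were higher and 5.47% lower. With 10 or more lectin UMIs none of 15 interferon genes was 2-fold higher, Irf1 alone was lower and the median was 0.17. Over all expressed genes 1.60% were higher and 1.95% lower there. Pycard, the inflammasome adaptor, was at least 2-fold higher at 164 and 348 CPM, while Il1b stood at 175 and 87.1 CPM. With 10 or more lectin UMIs Pycard stood at 209 and 357 CPM, under 2-fold. None of 17 expressed lysosomal genes passed 2-fold, which lies near the share over all expressed genes. Their median was 0.45, and 0.10 with 10 or more lectin UMIs.

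Of 15 expressed immediate early genes 5 were at least 2-fold lower and none higher in SCD members, with a median of -0.83. All 15 reached 50 CPM in wild-type and 9 did in SCD members, so that Fos, Fosb, Egr1, Dusp1, Nr4a1 and Nfkbiz entered through the wild-type library alone, and without the 50 CPM minimum the median was -0.82. Fos stood at 68.8 CPM in wild-type and 4.02 CPM in SCD members, Fosb at 90.5 and 13.4 CPM, Egr1 at 68.3 and 13.4 CPM, Dusp1 at 65.0 and 15.4 CPM and Jund at 269 and 117 CPM. With 10 or more lectin UMIs 3 of 12 were past 2-fold, Fos (97.1 and 3.31 CPM), Fosb and Jund, and the median was -0.47. These genes also respond to how cells are prepared, and Fos was lower in other gates of the SCD library as well, at 339 and 7.95 CPM in neutrophil-gate cells, 211 and 21.5 CPM in classical monocytes and 203 and 57.1 CPM in cDC1. The part of cell preparation in the members' values was not tested. In the BCL2 family 4 of 7 genes were lower, the near-identical copies Bcl2a1a, Bcl2a1b and Bcl2a1d and the proapoptotic Pmaip1 at 170 and 65.7 CPM, while Mcl1 stood at 587 and 455 CPM. The list's median was -1.31, and with 10 or more lectin UMIs it was -0.46 with 1 of 6 genes, Bcl2a1b, past 2-fold. Without the 50 CPM minimum the median of this list was -0.36, with a range of -0.49 to 0.30 that includes 0. Over all expressed genes 5.47% were lower.

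**Figure D4:**
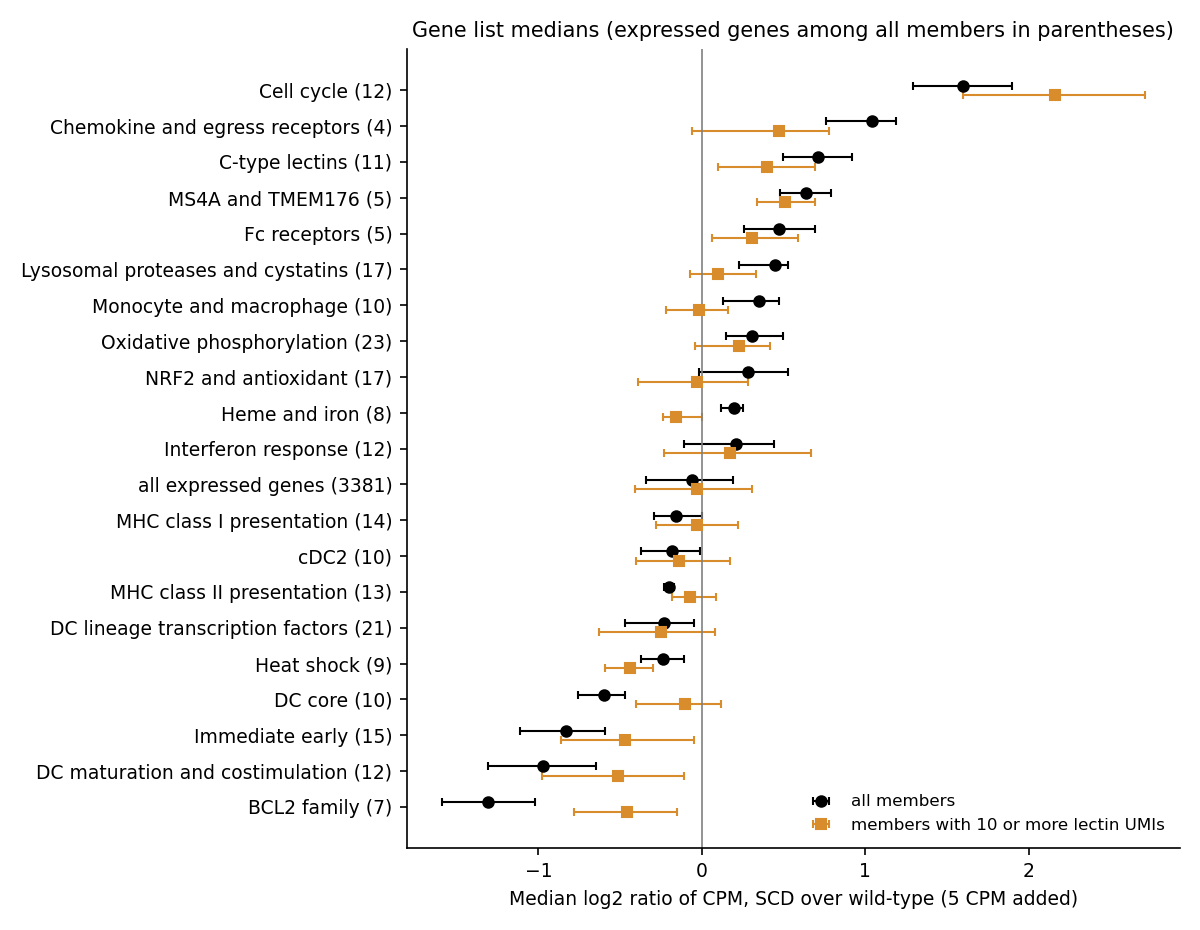
Median log2 ratio (SCD over wild-type, 5 CPM added) of the expressed genes of each list, with bars from the median of the genes' lower counting bounds to that of their upper bounds, in all members (black circles) and in members with 10 or more lectin UMIs (orange squares). The cell cycle list lies above 1 in both sets, while the lists for DC core, DC maturation and BCL2 genes move toward 0 in the orange set.

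Genes of cells removed by the rule were also measured in the members. The neutrophil list had 10 genes, of which 7 were expressed. These 7 were at least 2-fold higher in SCD members, beside 2.25% of all expressed genes. Only 2 genes of the list reached 50 CPM in wild-type and 7 in SCD members, so most entered through the library where they were higher. The median log2 ratio was 2.12, and 2.01 without the 50 CPM minimum. The rule itself capped S100a8 and S100a9. S100a8, an abundant protein of neutrophils, stood at 307 CPM in wild-type members (289.8 to 325) and 1248 CPM in SCD members (1192 to 1306). Its level was similar in the other gates of each library, from 180 to 275 CPM in the wild-type and from 1184 to 1622 CPM in the SCD Clec4a4 type, cDC1 and monocytes, and every SCD member carried it. The summed neutrophil list took 904 CPM of wild-type and 3739 CPM of SCD members, and 309225 and 434838 CPM of neutrophil-gate cells. Mouse globin genes summed to 2647 and 108 CPM, and 97.0% of the wild-type Hbb-bs UMIs came from 3 members. The mice differ in the mouse beta globin locus by design, so genotype and disease cannot be told apart there.

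Set against the other gates within each library, members held more of several monocyte and macrophage genes than the Clec4a4 type. Of 3234 genes tested 75 (2.32%) were at least 2-fold higher and 32 (0.989%) lower in members in both libraries. With 10 or more lectin UMIs 162 genes were higher and 241 lower in members in both libraries, so the balance depends on the lectin count asked for. In the monocyte and macrophage list 7 of 9 expressed genes were at least 2-fold higher in wild-type members, with a median log2 ratio of 1.95, and 6 of 10 in SCD members, with a median of 1.51. Ccr2 stood at 375 CPM in wild-type members against 11.2 CPM in the Clec4a4 type, and at 1104 CPM in SCD members against 7 UMIs in the SCD Clec4a4 type, an interval of 6.05 to 31.0 CPM. Ahnak, a large scaffold protein, stood at 427 against 18.4 and 543 against 2.15 CPM, Ccl9 at 167 against 4.00 and 465 against 4.30 CPM, and Crip1 at 1050.0 against 105 and 2328 against 90.3 CPM. F13a1, Cx3cr1, Fcgr2b, Fn1, Hpgd and Olfm1 were the other named higher genes. Lower in members were Relb (134 against 298 and 50.9 against 301 CPM), Ccr6, the CCL20 receptor (19.9 against 60.5 and 2.01 against 51.6 CPM), and the calcium channel gene Ryr3 (45.9 against 172 and 1.34 against 196 CPM). Flt3 was alike, at 139 against 122 and 135 against 116 CPM.

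cDC1 were set apart more widely. Of 3097 genes tested 226 (7.30%) were higher and 157 (5.07%) lower in members in both libraries. Zeb2, a repressor that cDC1 switch off, stood at 475 CPM in wild-type members against 9.91 CPM in cDC1, and at 541 against 12.3 CPM in the SCD library. Sirpa (CD172a), a surface marker of cDC2, stood at 395 against 21.3 and 309.6 against 13.1 CPM, and Cd7 at 289.6 against 10.9 and 295 against 7.14 CPM. Irf8, the factor of the cDC1 fate, stood at 110.4 against 2313 and 103 against 2404 CPM, and Tlr3, a sensor of double-stranded RNA, at 8.41 against 260.3 and 5.36 against 328 CPM. Cd8a gave 379.7 CPM in wild-type cDC1 and 179 CPM in SCD cDC1, and was at 3.31 CPM in wild-type members and gave no UMI in SCD members, which allows up to 2.47 CPM.

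Classical monocytes differed from members in the rule's MHC class II limit by construction, and 141 of 3132 genes (4.50%) were higher and 196 (6.26%) lower in members in both libraries. Outside the class II pathway, Ccnd1 (cyclin D1) stood at 1035 CPM in wild-type members against 15.9 CPM in monocytes and at 311 against 8.03 CPM in the SCD library. Slamf7, a self-ligand receptor of leukocytes, stood at 263 against 7.33 and 194 against 4.26 CPM. All 10 DC core genes expressed in the wild-type and all 8 in the SCD comparison were at least 2-fold higher in members. Vcan (versican) stood at 3.57 CPM in wild-type members against 230.4 CPM and at 4.69 against 372 CPM in the SCD library, Cebpb at 95.3 against 1130.5 and 71.7 against 684 CPM, and Fn1 (fibronectin) at 155 against 1944 and 273 against 2011 CPM.

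**Figure D5:**
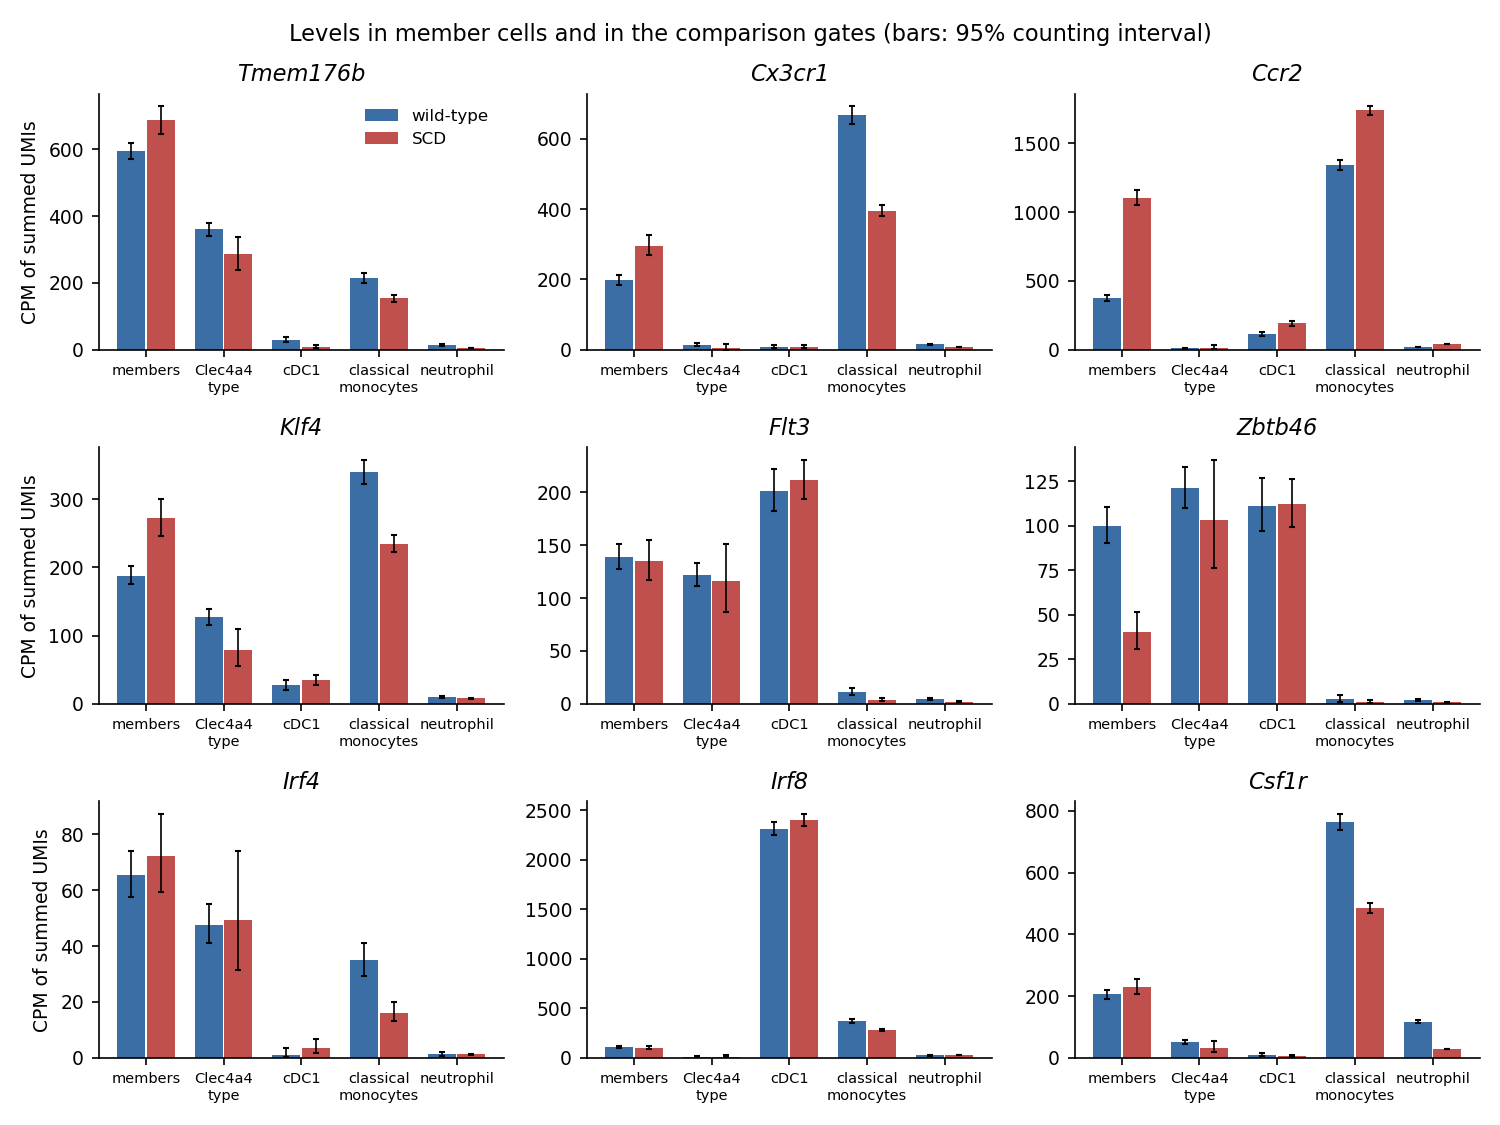
CPM of 9 genes in members and in the comparison gates of the wild-type (blue) and SCD (red) library, with bars for 95% counting intervals. The pooled members hold Ccr2 and Cx3cr1 at higher and Irf8 at much lower levels than cDC1, and SCD members have more Ccr2 and less Zbtb46 than wild-type members. After thinning, Cx3cr1 and Ccr2, the latter used to gate classical monocytes, were found in a larger share of classical monocytes than of members.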

How the data were processed

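Spleen cells of 1 wild-type and 1 SCD mouse were captured with 10x Chromium 3′ v3.1 reagents, and the study's methods place both libraries on the same chip. The authors deposited raw UMI counts per gene and cell, made with Cell Ranger 4.0.0 on GRCm38.p6, and the submitters' processing notes also list R 4.4, Seurat 3.2.3 and Scanpy 1.6.0.

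From these counts, cells with 500 to 5000 genes, under 15% mitochondrial and under 30% ribosomal UMIs were kept with Python 3.11.15, NumPy 2.4.6, SciPy 1.17.1 and pandas 2.3.3, and figures were drawn with matplotlib 3.10.9. UMIs of the members were summed per library and scaled to CPM, so that each library is 1 value and no count test was run. Ratios were taken as log2 after adding 5 CPM, with intervals from an exact conditional binomial, over genes with at least 50 CPM and 20 UMIs in either library. Shares of cells with a UMI were compared after thinning to 2000 UMIs, which left out 1 wild-type member. Doublets were called with Scrublet in Scanpy 1.11.5 at the wild-type threshold in both libraries, because its own threshold marked 0 SCD cells, and were kept.

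Genes named are the 12 with the highest and the 12 with the lowest SCD over wild-type ratios, leaving out genes of the rule, of cell classes and with a higher level in neutrophil-gate cells than in members of the library where the gene was higher, and the 10 each way with the largest smaller difference between members and each other gate, or between lectin classes, in both libraries. The members, the gene lists and the rules were chosen with earlier results of these data known, and the class of 10 or more lectin UMIs after the lectin counts had been seen. Members of lists named beside these counts were chosen after their values were seen. The scripts were tested on simulated data. Alternatives tried were median-of-ratios scaling, added values of 1 and 20 CPM, no CPM minimum, other lectin limits, other cell filters and denominators, thinned cells, removed doublets, and members split by DC balance or division. Motifs were searched in RefSeq promoter windows of GRCm38.p6. Some genes of the lists are not reported here.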

Additional observations from a re-analysis of the deposited data

Results flagged for a closer look

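Cells with at least 3 lectin UMIs that failed the MHC class II limit and no other limit stood outside every comparison above, and they were more frequent in the SCD library. They were 217 SCD cells, 2.04% of kept cells (1.78 to 2.33), and 140 wild-type cells, 1.49% (1.25 to 1.75), a ratio of 1.37 (1.11 to 1.70). In the SCD library they outnumbered the members. These cells had Lyz2, the lysozyme of monocytes and macrophages, at 21336 CPM in wild-type and 18184 CPM in SCD, and Ly6c2, a marker of classical monocytes, at 1295 and 2188 CPM. Ccr2 stood at 1505 and 1584 CPM and Flt3 at 88.4 and 23.2 CPM. Clec10a was close between the libraries at 274 and 292 CPM, while Cd209a stood at 523 and 111 CPM. Mki67 stood at 69.6 and 287 CPM. No explanation of this pattern was tested.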

How the results depend on the processing

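With 1 library in a group no replicate was left out, counting intervals do not cover differences between mice, and depth limits genes with few UMIs. No paired analysis was possible because the design has a single mouse on either side. The ratio of member shares of 0.289 was 0.414 with at least 5 lectin UMIs, 0.609 with at least 10 (a limit added after seeing the data), 0.527 outside the neutrophil gate and 1.20, in the other direction, among cells with MHC class II, while the other settings gave 0.240 to 0.326. The 185 genes lower in SCD members became 113 with 20 CPM added, 446 without a CPM minimum (with 168 higher) and 62 with at least 10 lectin UMIs. The MHC class II median of -0.20 was -0.13 with median-of-ratios scaling, -0.15 with at least 5 lectin UMIs and in members with more DC core than monocyte UMIs, -0.07 on thinned cells and with at least 10 lectin UMIs, -0.23 without doublets and -0.06 without dividing members. The heme and iron median of 0.20 was 0.27 with median-of-ratios scaling, 0.06 without a CPM minimum and 0.12 in members with more DC core UMIs, and it turned to -0.10 with at least 5 lectin UMIs, -0.14 on thinned cells and -0.16 with at least 10.

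Medians that turned negative included those of the red pulp macrophage list, in which Hmox1 alone reached 50 CPM in the members (-0.48 without a CPM minimum, where further genes enter, -2.31 with at least 5 lectin UMIs, -2.13 thinned and -2.79 with at least 10), of chemokines (-0.40 without a CPM minimum, -1.30 thinned and -1.31 with at least 10), of monocyte genes (-0.07 with at least 5 and -0.02 with at least 10) and of NRF2 genes (-0.03 with at least 10). The DC maturation median was -0.51 with at least 10 lectin UMIs, and that of non-classical monocyte genes turned to 0.99 in members with more DC core UMIs. Cenpf had a log2 ratio of -0.23 in members with under 2 division gene UMIs, a subset made without such cells. Against the Clec4a4 type, the 32 lower genes became 15 with median-of-ratios scaling, 103 with at least 5 and 241 with at least 10 lectin UMIs, where 162 were higher. The causes were not tested. Of all list medians 239 values stayed inside the main range. That range runs from the median of the genes' lower counting bounds to the median of their upper bounds. Another 77 left it, some of them across 0 (such as the pDC, Toll-like receptor and IL-1 lists, whose ranges reach 0). A further 13 changed sign from a range that excluded 0. For the named genes, set against each gene's own counting interval, these counts were 154, 85 and 1.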

Other observations

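The Siglech limit removed another set of cells with lectin UMIs. Cells with at least 3 lectin UMIs that failed the Siglech limit and no other limit were 149 of the wild-type (1.58% of kept cells, 1.34 to 1.85) and 50 of the SCD library (0.470%, 0.349 to 0.619). Siglech stood at 3421 CPM in wild-type and 3603 CPM in SCD, which follows from how these cells were chosen. Among genes not used to choose them, Tcf4, the transcription factor of plasmacytoid DCs, stood at 2675 and 2778 CPM, and Irf8 at 3559.8 and 3669 CPM. Cd209a stood at 434 and 479 CPM and Clec10a at 359 and 396 CPM in these cells, and Cx3cr1 at 6.47 and 13.2 CPM. In the members Clec10a stood at 244 and 635 CPM. A further 3 wild-type cells and no SCD cell met the rule with more than 5000 genes, and the latter allows up to 0.0274% of the SCD cells.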
